A study of Homo sapiens with 47 samples.

Results

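Neurofilament medium chain (NEFM), neurofilament light chain (NEFL) and ubiquitin C-terminal hydrolase L1 (UCHL1) are 3 of the 18651 gene rows in a count table of 47 single HEK293 cells. They were taken by name, as mRNAs that are textbook markers of nerve cells and yet were counted in this kidney-derived line. All 3 rows were found. The 3 genes were proposed with their spread over the cells already in view, so that spread is only described. The neurofilament counts were concentrated in a few cells, although NEFM had at least 1 UMI in 42 of 47. UCHL1 counts were more evenly spread, and it was 1 of 1033 genes with a UMI in every cell. HEK293 is an established line, grown from human embryonic kidney tissue after transformation with adenovirus DNA. All cells belonged to 1 group, of 1 line in 1 run with no treatment named, grown in DMEM with glutamine and fetal calf serum, and nothing in the labels says that they came from separate cultures. Each cell was lysed in a Fluidigm C1 chamber with synthetic ERCC spike-in RNAs, its poly(A) RNA was copied, and each copy was given a random tag (unique molecular identifier, UMI) where it reached the 5′ end of its transcript. The barcoded copies of all cells were then pooled into a single sequencing library. No groups were compared, and the cells, which share a library pool, are described against each other and are not replicates.

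Neurofilaments are the intermediate filaments of neurons. Light, medium and heavy chains assemble into long polymers that fill axons and set their calibre, and NEFL forms the core into which NEFM is incorporated. UCHL1, also known as PGP 9.5, is a deubiquitinating enzyme that is very abundant in neurons and neuroendocrine cells and is a common histological marker of them. HEK293 cells have long been noted for carrying neuronal intermediate filament mRNAs, which has been discussed in terms of the cell of origin of the line.

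A cell had 29325 to 138647 UMIs of its own genes (median 59689), which is the depth behind every count below. Levels are given as UMIs per cell, or as scaled UMIs, meaning UMIs divided by the cell's total and multiplied by the median total. Since 1 tag is counted per cDNA end, UMIs are not divided by transcript length. Long transcripts can still be undercounted, because the copy has to reach the 5′ end. The spike-in RNAs were recovered at 17.7% of the 20000 molecules added per cell, and dividing a count by the cell's own recovery gives an estimated number of mRNA molecules, on the assumption that the gene was caught as efficiently as the spike-ins. Intervals are 95% exact Poisson intervals and cover counting error only.

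NEFM was the neurofilament mRNA with the most UMIs. It had 462 UMIs over all cells (interval 421 to 506), which was 0.0158% of all endogenous UMIs and rank 968 of the gene rows. The count per cell ran from 0 to 52, with a median of 2 and a mean of 9.83 ± 14.98 (SD, n = 47 cells). Of the 47 cells, 5 had no NEFM UMI and 15 had exactly 1. At the other end, cell 57 had 52 UMIs, cell 7 had 51, cell 9 had 46, cell 38 had 42, cells 35 and 75 had 39 each, and cell 20 had 32. These 7 cells held 301 of the 462 UMIs, or 65.2%, and the next cell below them, cell 33, had 20. Most cells were thus at or near the bottom of the range, and 6 cells were enough to hold 50% of all NEFM UMIs. After scaling, the highest cell was cell 7 with 56.3 scaled UMIs, against a median of 2.50. As estimated molecules, NEFM reached 296 in cell 7, with a median of 13.8 over the cells.

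NEFL was rarer than NEFM. It had 112 UMIs (interval 92.2 to 135), from 0 to 21 per cell with a median of 1 and a mean of 2.38 ± 3.88 (SD, n = 47 cells). NEFL had at least 1 UMI in 30 of 47 cells, and NEFM in 42. When each cell is reduced to the lowest total, 29325 UMIs, the expected number of cells with a UMI is 22.5 for NEFL and 34.6 for NEFM, so part of the zeros at this depth are a matter of counting. Cell 2 had 21 NEFL UMIs, cell 57 had 11, and cells 62 and 75 had 10 each. These 4 cells held 46.4% of the NEFL UMIs, and no other cell had more than 6. Cell 2, the highest in NEFL, had 1 NEFM UMI, while cells 57 and 75 were also among the 7 cells highest in NEFM. Summed over cells there were 4.13 NEFM UMIs for each NEFL UMI. NEFM exceeded NEFL in 35 cells, NEFL exceeded NEFM in 5 cells, and 7 cells had equal counts.

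UCHL1 was present in every cell. It had 817 UMIs (interval 762 to 875), 0.0280% of the total and rank 530 of the gene rows. The lowest count was 3, in cells 31 and 73, the median was 16, and the highest was 43, in cell 62, with a mean of 17.4 ± 10.1 (SD, n = 47 cells). Between these, 32 cells had 10 to 30 UMIs, 11 had fewer and 4 had more. No cell stood far from its neighbours in rank, as the values on the bar plot of UMIs per cell show. After scaling, UCHL1 ran from 4.16 in cell 50 to 37 in cell 17 around a median of 15.4, an 8.90-fold range. Estimated molecules had a median of 81.2 per cell and reached 237 in cell 38. UCHL1 outnumbered NEFM in 38 cells, and NEFM outnumbered UCHL1 in 8.

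**Figure D1:**
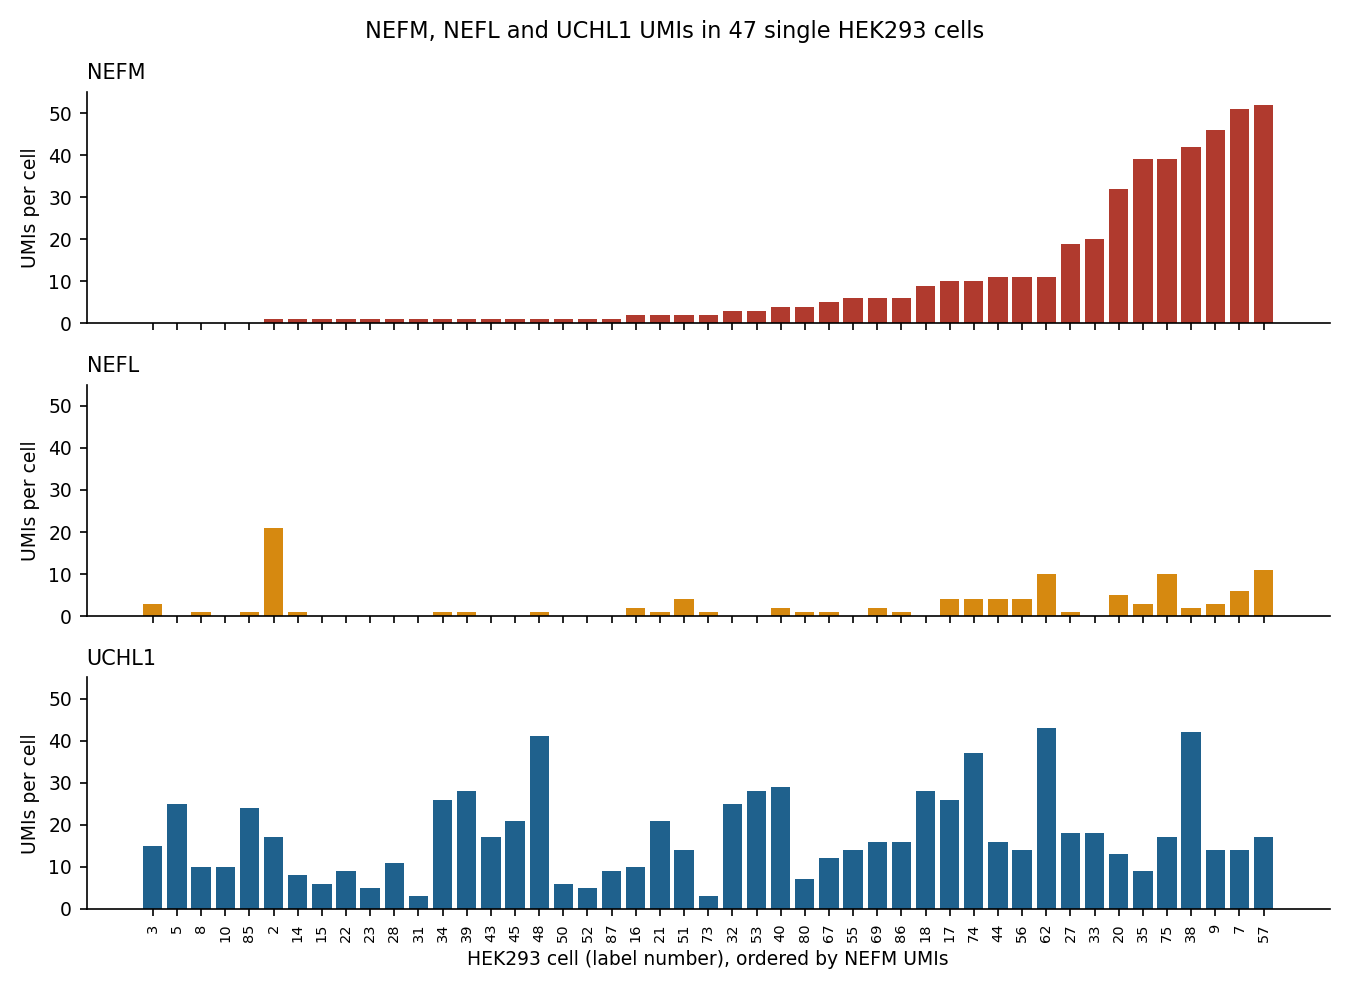
Bars give the UMIs of NEFM, NEFL and UCHL1 in each of the 47 cells (x axis, label number, ordered by NEFM UMIs; y axis, UMIs per cell, not scaled for depth). NEFM rises to 52 UMIs in cell 57 and is at 0 or 1 in 20 cells, NEFL is highest in cell 2 with 21, and UCHL1 is never below 3.

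Because the library tags the 5′ end, a UMI is read at the start of a transcript, although the table gives only counts per gene and no positions. RefSeq's sequence around the annotated start of UCHL1 is shown for that reason. Of the 3 genes, 1 (UCHL1) matched the RefSeq promoter table. It covers chr4:41256678-41256977 of GRCh38.p14, plus strand, from 250 bases before the annotated start to 50 bases after it. The reads were aligned to another build, hg19, so the position does not apply to the deposited table. Capitals mark matches to 4 short motifs searched on both strands, namely the TATA box core TATAA, the GC box GGGCGG, the CCAAT box CCAAT and the E-box CACGTG.

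UCHL1 promoter: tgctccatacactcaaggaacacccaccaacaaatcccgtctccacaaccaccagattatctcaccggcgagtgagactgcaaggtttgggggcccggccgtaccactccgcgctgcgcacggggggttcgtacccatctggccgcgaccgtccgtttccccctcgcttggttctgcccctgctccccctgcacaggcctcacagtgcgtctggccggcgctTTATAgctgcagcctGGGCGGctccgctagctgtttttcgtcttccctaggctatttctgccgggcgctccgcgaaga

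The window holds 1 match to TATAA, read on the minus strand, that starts at position -28 from the annotated start, and 1 match to GGGCGG on the plus strand at -13. It holds none to CCAAT or CACGTG. Of 35116 promoters of the same length in the table, 20.4% held TATAA, 44.95% held GGGCGG, 34.6% held CCAAT and 7.26% held CACGTG. The G and C content of the window was 63.0%, against a median of 58.7% over all promoters. In GENCODE release 29 an antisense gene, UCHL1-AS1, overlaps UCHL1 on the opposite strand. It is not analysed here, and whether counting used strand is not given in the sources used here.

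How unevenly a gene was spread is given as its index of dispersion: chi-square of the observed counts, with each cell expected to hold UMIs in proportion to its total, over the degrees of freedom. An index of 1 is what counting error alone would give. The members were proposed with their spread in view, so the index is a description here and carries no test. It was computed for the 9088 genes with at least 20 UMIs and for 52 spike-ins, which carry no biological variation. The spike-ins had a median index of 2.11 and a highest index of 3.97, and the median of all genes was 2.00. Among all genes, 3.21% (292 of 9088) lay above the highest spike-in.

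NEFM was far above both references. Its index of 21.3 was rank 16 of 9088, and all but 1 of the 15 genes above it were histone H4, MALAT1, mitochondrial or ribosomal RNA genes with at least 1926 UMIs. The exception was SLC28A2, a nucleoside transporter gene with 27 UMIs in 3 cells. Within 1.5-fold of its summed UMIs there were 817 genes, with a median index of 2.30, and NEFM was the highest of them. The next highest had an index of 7.56. The 3 spike-ins nearest to NEFM in summed UMIs had indices of 2.31 to 2.93, were found in all 47 cells and peaked at 24 to 31 UMIs per cell. With cell 7, the highest in scaled NEFM, left out, it was 18.8.

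NEFL lay above the highest spike-in too, with an index of 5.54 and rank 103 of 9088. Among 2156 genes of like summed UMIs it was rank 10, against a median of 2.01. This position rested on cell 2, without which the index was 3.31. A spike-in of almost the same abundance, ERCC-00163 with 115 UMIs, was found in 30 of 47 cells like NEFL, peaked at 17 UMIs and had the highest spike-in index, 3.97. The other 2 spike-ins nearest to NEFL, ERCC-00144 with 120 UMIs and ERCC-00084 with 96, had indices of 1.80 and 2.24. The index of NEFL without cell 2 thus lay above these 2 and below that of ERCC-00163, which was computed over all cells.

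UCHL1 had an index of 3.72. It was more even than the neurofilament mRNAs, but it was not among the even genes of the table. It ranked 404 of 9088, and 52 among 442 genes of like summed UMIs, whose median was 2.56. The index was under the highest spike-in, while the 3 spike-ins nearest in abundance had 1.92 to 2.66. Without cell 17, the highest in scaled UCHL1, the index of UCHL1 was 3.47. With counts scaled to spike-in totals in place of endogenous totals it was 5.25, which is above the highest spike-in. Its place under that limit thus depended on the scaling. The share of all genes above the limit with spike-in totals is not given here.

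The index grows with abundance for a given relative spread, so the squared coefficient of variation of scaled UMIs, after subtracting the part due to counting, is given for comparison between genes. It was 2.17 for NEFM, 1.78 for NEFL and 0.155 for UCHL1. For the nearest spike-ins it was 0.117 to 0.178 beside NEFM, 0.304 to 1.29 beside NEFL and 0.0509 to 0.0894 beside UCHL1. On this scale too NEFM was the member that differed most from synthetic RNA of its abundance.

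**Figure D2:**
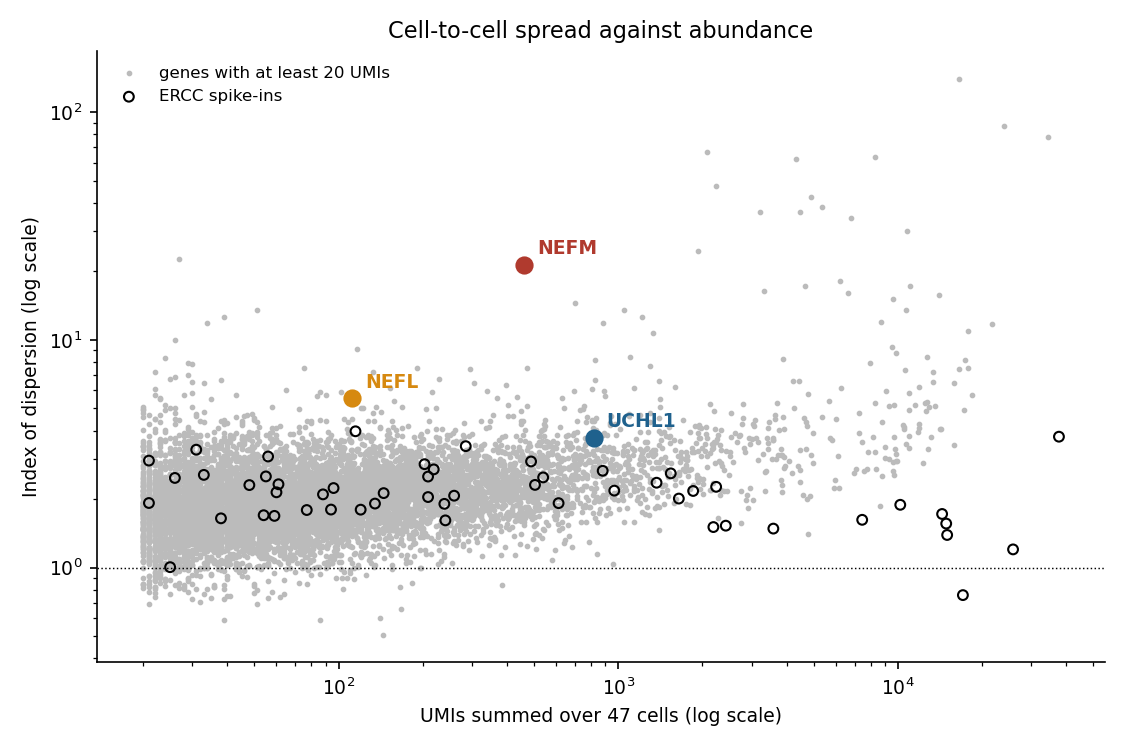
Index of dispersion (y axis, log scale) against UMIs summed over the 47 cells (x axis, log scale) for 9088 genes (grey), 52 ERCC spike-ins (open circles) and the 3 members (coloured). NEFM, at 462 UMIs and an index of 21.3, stands above all genes of like abundance, NEFL (5.54) is near the upper edge, and UCHL1 (3.72) is in the upper part of the cloud.

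NEFM and NEFL tended to be high in the same cells. Over the 47 cells Spearman's rho of their scaled levels was 0.488 and Pearson's r of log2(1 + scaled UMIs) was 0.511. The r was 0.424 without cells 7 and 57, which lie farthest from the NEFM median, and rho was 0.552 without cell 2. Both mRNAs were found in 27 cells, NEFM alone in 15, NEFL alone in 3 and neither in 2. Among the 3684 other genes with at least 100 UMIs, NEFL was rank 3 in correlation with NEFM, and NEFM was rank 3 with NEFL. In the 30 cells with label numbers up to 48 rho was 0.386, and in the 17 cells above 48 it was 0.673. The cells share an origin but differ in depth. Scaled NEFM and NEFL had a rho of 0.0746 and 0.0194 with the endogenous total, by which they had been divided, and of 0.154 and 0.0864 with the spike-in UMIs of the cell. The part of depth in the relation was not tested.

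UCHL1 showed little relation to the neurofilament mRNAs. Its rho was 0.0168 with NEFM (r = 0.0938) and 0.163 with NEFL (r = 0.227), which placed NEFM at rank 1858 and NEFL at rank 611 of the 3684 genes ordered by likeness to UCHL1. Raw UCHL1 counts rose with the endogenous total of the cell (rho = 0.635), and after scaling the rho was 0.104. Raw NEFM and NEFL counts had a rho of 0.283 and 0.131 with the total. Cells 38 and 48 had nearly the same UCHL1 count, 42 and 41 UMIs, beside 42 and 1 NEFM UMIs.

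**Figure D3:**
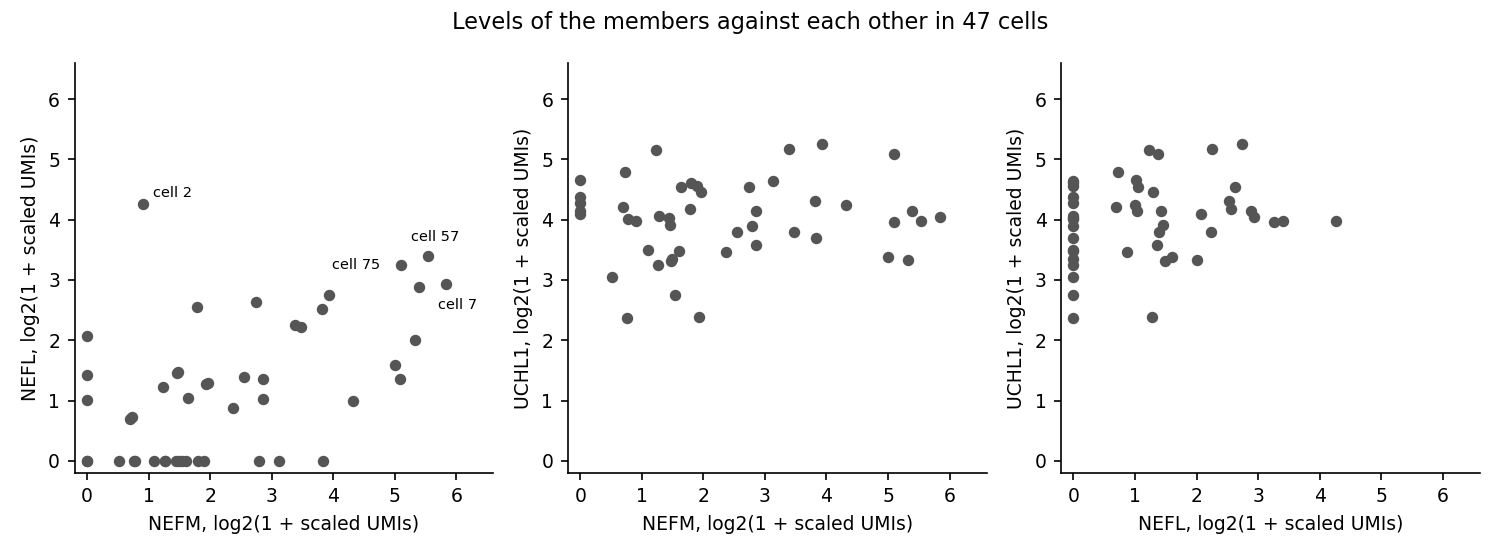
Each point is 1 of 47 cells, with axes in log2(1 + scaled UMIs) for NEFM against NEFL (left), NEFM against UCHL1 (middle) and NEFL against UCHL1 (right). Cells 7, 57 and 75 are high in both neurofilament mRNAs (rho = 0.488 over all cells), cell 2 is high in NEFL alone, and the panels with UCHL1 show no trend with NEFM (rho = 0.0168).

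The genes most like each member are named by rank of rho alone, as descriptions over 47 cells of unequal depth. The rho values of all 3684 genes had a median of 0.0115 for NEFM, 0.0297 for NEFL and 0.0179 for UCHL1, and all but the lowest 1% and highest 1% of genes lay between -0.322 and 0.376, -0.310 and 0.370, and -0.333 and 0.356. The top of each list therefore sits on the tail of a broad distribution, with 20, 23 and 14 genes above a rho of 0.4. Many of these genes have only a few UMIs per cell.

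Among the genes most like NEFM were SLC5A6 (rho = 0.50), a sodium-dependent vitamin transporter, and NEFL, followed by YWHAH (0.474), a 14-3-3 protein, MBNL1 (0.471), a splicing regulator, and ATP6V1G1 (0.469), a subunit of the vacuolar proton pump. SLC5A6 had 131 UMIs, 0 to 10 per cell with a median of 2, and an index of 1.05, close to what counting error alone would give. After scaling, the rho with the endogenous total was 0.325 for SLC5A6, 0.261 for YWHAH, 0.469 for MBNL1 and 0.386 for ATP6V1G1, against 0.0194 for NEFL. The part of depth in these likenesses was not tested. ATP6V1G1 was the most abundant of them, with 1 to 40 UMIs per cell and a median of 15. The lowest rho values were with POP5 (-0.446), a subunit of RNase P, SCO2 (-0.439), which delivers copper to cytochrome oxidase, and NACA (-0.425), which binds nascent polypeptides. With spike-in scaling the value for NACA was -0.129.

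Among the genes most like NEFL were TPR (0.492), a protein of the nuclear pore basket, and NEFM. After NEFM came SRP68 (0.475), part of the signal recognition particle, SMIM13 (0.473), and PTTG1 (0.469), the securin that guards sister chromatid cohesion. PTTG1 had 0 to 40 UMIs per cell with a median of 16. AC000089.3 (-0.533) and SNX4 (-0.458), a sorting nexin, were among the lowest. The first of these had the largest rho in size of any gene with NEFL. TPR had a rho of 0.117 with NEFM, and PTTG1 one of 0.336.

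For UCHL1 the highest rho was with ACTR6 (0.579), an actin-related protein of chromatin remodelling, with 0 to 14 UMIs per cell. TTC1 (0.503), ANAPC5 (0.480), a subunit of the anaphase-promoting complex, SLC3A2 (0.475), the heavy chain of amino acid transporters, PPIA (0.449), the cyclophilin A prolyl isomerase, and UMPS (0.447), an enzyme of pyrimidine synthesis, followed. PPIA, with 66 to 397 UMIs per cell and a median of 211, was the most abundant. PPIA has many processed copies in the genome, and reads shared with them would make its count uncertain. RHOA (-0.486), a GTPase of the actin cytoskeleton, MYBL2 (-0.480), a transcription factor of cycling cells, and CSNK1A1 (-0.431), a casein kinase, were lowest. These 3 negative values did not hold with spike-in scaling, where they were 0.0371, -0.0769 and -0.0908. Positive values moved as well, to 0.633 for ANAPC5, 0.640 for PPIA and 0.611 for UMPS. ACTR6, TTC1 and SLC3A2 moved less, to 0.571, 0.564 and 0.580. Of the 20 genes most like UCHL1, 7 were kept with that scaling.

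**Figure D4:**
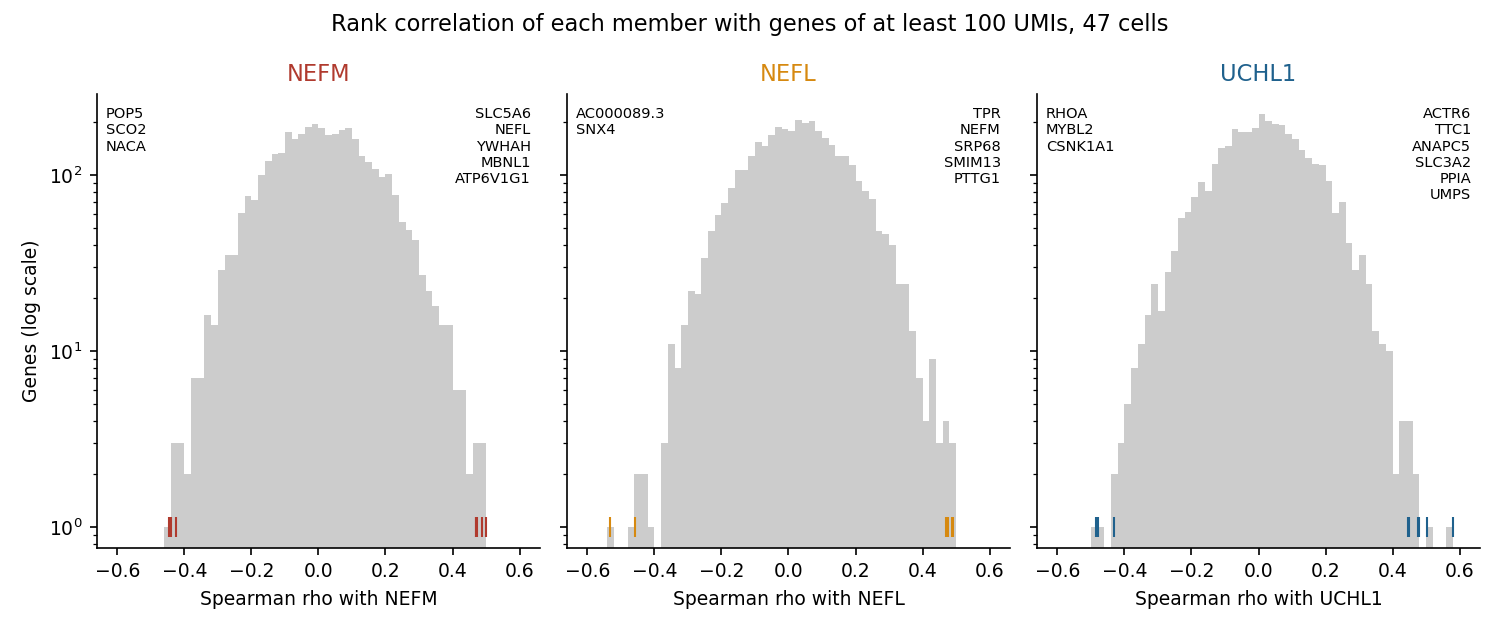
Histograms of Spearman's rho (x axis) of each member with 3684 genes of at least 100 UMIs over 47 cells (y axis, number of genes, log scale). Ticks mark the genes named in the corners, which are among the highest and lowest and reach 0.50 for NEFM, 0.492 for NEFL and 0.579 for UCHL1.

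Other intermediate filament genes were counted beside the neurofilament pair. Of 18 genes in a list of the family 12 had a row, and 9 of these 12 (75%) had at least 20 UMIs, beside 48.7% of all gene rows. NEFH, the heavy chain, and NES, nestin of neural precursors, have no row and are not analysed here. INA (alpha-internexin) and PRPH (peripherin), the other filament proteins of neurons, had 15 and 13 UMIs, in 13 and 7 cells. Vimentin (VIM), the filament of mesenchymal and many cultured cells, had 728 UMIs, from 3 to 64 per cell with a median of 15. The simple epithelial keratins KRT8 and KRT18 had 125 and 223 UMIs and medians of 2 and 4 per cell. NEFM had a rho of -0.0682 with VIM, -0.223 with KRT8 and -0.0980 with KRT18. NEFM, NEFL, VIM (index 4.92) and KRT18 (4.07) were the 4 of 9 family members above the highest spike-in, beside 3.21% of all genes. The first 2 of these 4 were chosen with their spread known.

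Among ubiquitin genes UCHL1 had one of the higher indices, although an index grows with abundance for a given relative spread. A list of 20 deubiquitinating enzymes and ubiquitin genes had a row for all 20, and 19 had at least 20 UMIs, beside 48.7% of all gene rows. Their median index was 2.14, and with endogenous totals 0 of 19 lay above the highest spike-in, beside 3.21% of all genes. With spike-in totals the index of UCHL1 was 5.25, above the highest spike-in index of 3.97. The 3.21% was computed with endogenous totals, and the share of all genes with spike-in totals is not given here. UCHL3 and UCHL5, the enzymes of the same family, had 224 and 292 UMIs and indices of 2.37 and 2.14. Both had fewer UMIs than UCHL1, so their lower indices do not show a smaller relative spread. They had a rho of -0.110 and -0.0944 with UCHL1. Genes of ubiquitin itself were abundant, with medians per cell of 123 UMIs for UBB and 237 for RPS27A. UBB (index 3.73) and RPS27A (3.95) had indices close to that of UCHL1, whose median was 16 UMIs per cell. At such unlike counts, near-equal indices mean a smaller relative spread for UBB and RPS27A than for UCHL1. RPS27A encodes a fusion of ubiquitin with a ribosomal protein and has near-identical copies, so its count is less certain. USP9X, a deubiquitinating enzyme, had a rho of 0.428 with NEFM and -0.0422 with UCHL1.

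Other neuronal genes ranged from 1 UMI to more UMIs than UCHL1. In 4 lists of neuronal cytoskeleton, RNA-binding proteins and enzymes, synapse and secretory vesicle, and neural regulators, 56 of 92 genes had a row. All 56 had a UMI, as did 17819 of all 18651 gene rows. At least 20 UMIs were reached by 32 of the 56, or 57.1%, beside 48.7% of all gene rows. Their median gene was found in 28.7% of cells, beside 23.4% for all genes. The listed genes that have a row were thus close to the table at large. TUBB3, SNAP25, STMN2, DCX and CHGA are among the 36 genes that have no row and are not analysed here. These 36 genes are outside the shares above, which therefore do not describe the full lists.

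The cytoskeletal list had the highest counts. STMN1, a tubulin-binding protein of dividing cells as well as neurons, had 1661 UMIs, with a median of 35 per cell, and MARCKS, MARCKSL1 and TUBB2B had 522, 377 and 292. GAP43, the growth cone protein, had 1 UMI in all. In the enzyme and RNA-binding list RBFOX2, which is not restricted to neurons, led with 113 UMIs, ENO2, the neuronal enolase, had 50, GAD1, which makes GABA, had 30, and MSI1 had 25. Of synaptic genes RAB3A, CPLX1, NCAM1 and NSG1 led with 63, 35, 31 and 26 UMIs, and SYP, synaptophysin, had 8 in 5 cells. No gene of these 3 lists had an index above the highest spike-in, beside 3.21% of all genes.

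Among neural regulators SOX4 was an exception in level and spread, with 1331 UMIs, 2 to 126 per cell with a median of 23, and an index of 10.8. SOX4 acts in many embryonic tissues besides neurons. It had a rho of 0.208 with NEFM, 0.0633 with NEFL and 0.240 with UCHL1. POU4F1, ISL1, PAX6 and ONECUT2, transcription factors of sensory, motor or forebrain neurons among other cells, had 92, 67, 68 and 69 UMIs. REST, the repressor of neuronal genes, had 40 UMIs in 21 cells, with a rho of -0.0374 with NEFM, 0.136 with NEFL and -0.00831 with UCHL1.

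From cell to cell, the neuronal lists had rho values with the members close to those of all genes. Over the 32 genes with at least 20 UMIs the median rho was 0.0175 with NEFM, 0.0148 with NEFL and 0.0341 with UCHL1, beside 0.0249, 0.0257 and 0.0132 over all 9087 other genes. The highest values were with ENO2 for NEFM (0.270), RCOR1 for NEFL (0.386) and VAMP2 for UCHL1 (0.448), and RCOR1 and VAMP2 had only 20 and 25 UMIs. The lowest were with DPYSL2 for NEFM (-0.344), STMN3 for NEFL (-0.271) and DPYSL2 for UCHL1 (-0.158).

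Markers of other cell types were counted for comparison. Of 15 kidney epithelium markers 6 had a row. Of these 6, 3 (50%) had at least 20 UMIs, beside 48.7% of all gene rows, namely LHX1 (33), SIX2 (28) and LRP2 (26). PAX2, a defining gene of kidney precursors, had 8 UMIs and PAX8 had 1. Of 10 adrenal cortex markers 5 had a row, and the defining genes NR5A1 and CYP11A1 had 1 UMI each. FDX1 (294) and SCARB1 (173), which many cells express, held most of the list. Blood and immune markers summed to 25 UMIs over 5 genes and fibroblast markers to 19 over 3. Neither list had a gene with 20 UMIs, which 48.7% of all gene rows reached. The summed blood markers were at 0 to 6 UMIs per cell with a median of 0. The labels name HEK293 cells only, so blood markers cannot show stray RNA from cells high in NEFM or NEFL. The part of stray RNA in the neurofilament counts of 1 per cell was not tested.

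**Figure D5:**
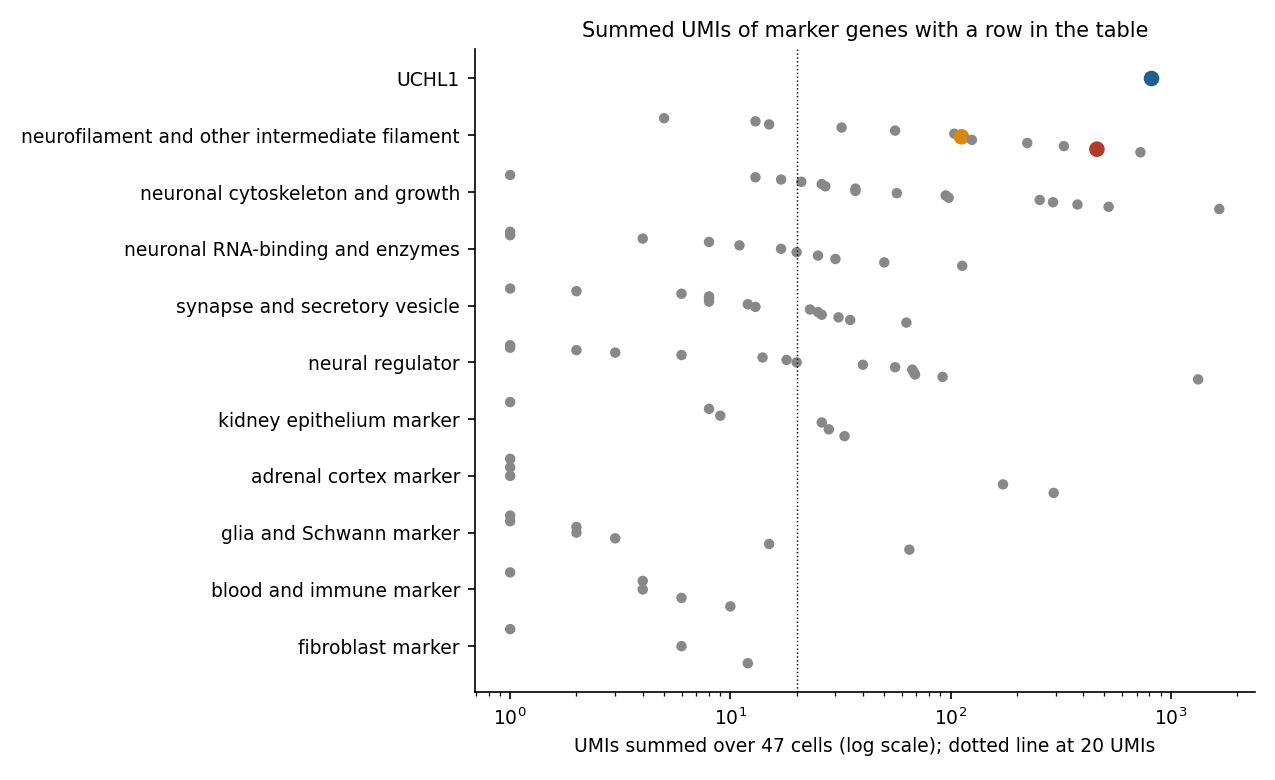
Each point is a gene with a row in the table, placed by its UMIs summed over 47 cells (x axis, log scale) in its marker list (y axis; vertical position within a list has no meaning). NEFM (red, 462), NEFL (orange, 112) and UCHL1 (blue, 817) lie to the right of most neuronal, kidney, adrenal, glial, blood and fibroblast markers, and the dotted line is at 20 UMIs.

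The members had little relation to the phase of the cell cycle as far as summed marker shares show it. With the share of 23 G1/S genes, rho was -0.0208 for NEFM, 0.105 for NEFL and -0.0870 for UCHL1. With the share of 26 G2/M genes it was 0.181, 0.0167 and 0.190. Cell 52, the cell with the highest share of mitochondrial RNA, had 1 NEFM, 0 NEFL and 5 UCHL1 UMIs, and without it the indices were 21.6, 5.57 and 3.74. In cells with label numbers up to 48 and above 48 the median of NEFM was 1 and 5 UMIs (1.85 and 4.85 scaled) and its index 23.6 and 18.4. The 7 cells above 30 NEFM UMIs fell into both ranges, 5 in the first and 2 in the second.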

How the data were processed

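The authors deposited 1 table of raw UMI counts, as whole numbers, with genes in rows and cells in columns. Per the submitters' processing notes the tools were cutadapt 1.2.1 and STAR 2.4.0a and the build hg19 (GRCh37). For annotation, UMI collapsing, strand and cell filter, the sources used here give nothing. All 47 columns matched 1 label each, and a repeated header line that names no gene (0.0602% of all values) was left out. Spike-in rows were kept out of totals. Scaled levels, indices and rank correlations were computed with Python 3.11.15, pandas 2.3.3 and scipy 1.17.1, with TMM from edgeR 4.0.16 and size factors from DESeq2 1.42.0 as other scalings, and the code was checked on simulated data. Named genes are the 3 members, the 6 genes with the highest and 3 with the lowest rho for each (at least 100 UMIs), and, of each list, up to 4 with the most UMIs, those above the highest spike-in index and defining markers. Further genes of a list that are named (UCHL3, UCHL5, INA, PRPH, GAP43, REST and others) were chosen after their values were seen. Some genes that this rule names are not reported here. The members and lists were chosen with earlier results of these data known. No test was run, since the labels give no groups and the members were proposed for their pattern.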

Additional observations from a re-analysis of the deposited data

How the results depend on the processing

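Mean levels with spike-in or TMM scaling, and indices with DESeq2, TMM or spike-in scaling or without cell 52, moved by less than the SD over cells and by less than 1.5 times. The UCHL1 index still passed the highest spike-in index of 3.97 with spike-in scaling, at 5.25. The share of all genes that passed it with that scaling is not given here. Thinning each cell to 29325 UMIs (1 seeded draw) gave indices of 9.39 for NEFM, 3.34 for NEFL and 2.21 for UCHL1, since an index falls with fewer UMIs. The NEFL index was 3.31 without cell 2 and 3.55 in cells numbered above 48. For the 3 pairs of members, rho moved by less than 0.147 (the SD of a rank correlation over 47 independent points) under all scalings, omissions and thinning tried, except NEFM with NEFL in cells numbered above 48 (0.673). Counting neuronal list genes with at least 20 UMIs in place of 1 gave 32 of the 56. Of 148 values for the named partner genes under the alternatives, 140 moved by less than 0.147, and 1 changed sign beyond that, UCHL1 with RHOA with spike-in scaling (0.0371). The cause was not tested. The 20 genes most like each member depended on the setting, with 8 to 17 kept for NEFM, 6 to 18 for NEFL and 7 to 16 for UCHL1. Depth limits all 3 indices, as the values after thinning show, and the partner genes were not recomputed after thinning.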

Other observations

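Genes that move and anchor neurofilaments were counted at varied levels. All 18 genes of a list of transport motors, linkers and kinases had a row. At least 20 UMIs were reached by 15 (83.3%), beside 48.7% of all gene rows. The median index of these 15 was 2.00, as over all genes. The dynein light chain DYNLL1 led with 1872 UMIs (7 to 95 per cell, median 35), followed by the dynein heavy chain DYNC1H1 with 576, DYNC1I2 with 287 and CDK5, a kinase that phosphorylates neurofilament tails, with 226. The ubiquitous kinesin KIF5B had 162 UMIs, while the neuronal KIF5A and KIF5C had 10 and 11. DST, which encodes the cytoskeletal linker dystonin, was the 1 gene of these 15 above the highest spike-in, beside 3.21% of all genes, with an index of 5.07, a highest count of 23 in cell 7, which is also the highest in scaled NEFM, and a rho of 0.212 with NEFM.

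Of 11 glial and Schwann cell markers 7 had a row. SLC1A3, a glutamate transporter that other cells also express, had 65 UMIs in 29 cells, OLIG2 had 15, and MBP, a myelin protein, had 1. Heat shock genes, which respond to handling among other things, took 0.382% to 0.856% of a cell's UMIs, and their share had a rho of 0.175 with NEFM, 0.0629 with NEFL and -0.0976 with UCHL1.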
